A study of Rattus norvegicus with 36 samples.

Results

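Taste and chemosensory cell genes were followed in rat vocal fold (VF) mucosa through wound healing. The members were 6 genes, Gnat3, Irag2, Trpm5, Plcb2, Gng13 and Tas1r2, taken by symbol from the array annotation, where Irag2 may stand under its older name Lrmp. Gnat3, Irag2, Plcb2 and Gng13 each had 1 probe set annotated to that gene alone, so 4 of the 6 members were measured, among 14217 genes with such a probe set. Trpm5 and Tas1r2 were not analysed here. The members were chosen by their levels in the PI and control mucosa arrays, which were known beforehand, so their levels there, and the differences that rest on them, are given as a description, without a test.

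RNA came from microdissected VF mucosa of Fischer 344 rats, male according to the methods and 120 days old at the start. Post-injury (PI) rats underwent surgical stripping of both VF mucosae, and controls were age-matched rats that had no surgery. The mucosae of 4 rats were pooled for each array, with 5 arrays from PI rats and 3 from controls at 3 days (age 123 days), 5 and 3 at 14 days (age 134 days), and 5 and 2 at 60 days (age 180 days). The methods describe the same total at 60 days with 1 array fewer from PI rats and 1 more from controls, so the groups at 60 days follow the labels and are less certain than those at 3 and 14 days. Another 13 arrays held cultured VF fibroblasts at passage 1, each culture grown from 1 rat aged 180 days. They comprised 4 cultures from scar at 60 days PI, 3 cultures from naive mucosa, and scar cultures given 50 nM siRNA against gp46 (3 arrays) or 50 nM scramble siRNA (3 arrays). The labels name biological replicates but no shared litter, surgery or day. All values are log2 RMA intensities, an Affymetrix measure in which 1 unit is a doubling. The sorted values of the 36 arrays differed by at most 0.03, so a level is relative to all other RNA on the array. Values are compared between groups for 1 gene and not between genes, because probe sets differ in brightness.

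Sweet, umami and bitter taste cells, and the solitary chemosensory or tuft cells scattered through airway and gut epithelium, share a signaling cascade. A taste receptor activates the G protein gustducin, phospholipase C releases calcium from internal stores through the inositol trisphosphate receptor, and the cation channel Trpm5 opens and depolarizes the cell. The transcription factor Pou2f3 is needed for tuft cells and for these taste cells to form, and the larynx is known to hold both taste buds and solitary chemosensory cells.

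Gnat3, the alpha subunit of gustducin, was low at 3 days PI, high at 14 days PI and near the control level at 60 days PI. At 3 days its level was 6.96, 7.11, 6.47, 6.95 and 7.25 in PI arrays, against 7.58, 8.01 and 7.28 in control arrays. At 14 days it was 8.92, 9.04, 9.32, 9.04 and 9.39 in PI arrays, against 8.14, 7.88 and 7.56 in control arrays. At 60 days it was 8.54, 7.81, 7.83, 7.33 and 8.03 in PI arrays, against 7.97 and 8.26 in control arrays. Every PI array lay below every control array at 3 days and above every control array at 14 days, and at 60 days the control arrays lay inside the PI range. The log2 difference, PI minus control, was -0.67 (SE 0.22) at 3 days, a 1.59-fold lower level. It was 1.28 (SE 0.22) at 14 days, 2.43-fold higher, and -0.21 (SE 0.25) at 60 days. Ordered by mean, the groups ran from PI at 3 days (6.95) through control at 3 days (7.62), control at 14 days (7.86), PI at 60 days (7.91) and control at 60 days (8.12) to PI at 14 days (9.14). The 4 groups in the middle overlapped each other, while both ends stood clear of their neighbours.

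Irag2, also known as Lrmp or Jaw1, encodes a membrane protein of the endoplasmic reticulum that is found in tuft cells and type II taste cells as well as in lymphocytes. At 3 days its level was 8.04, 8.27, 7.96, 8.07 and 8.29 in PI arrays, against 8.67, 8.98 and 8.52 in control arrays. At 14 days it was 9.32, 9.31, 9.18, 9.32 and 9.20 in PI arrays, against 8.82, 8.75 and 8.77 in control arrays. At 60 days it was 9.17, 8.63, 8.80, 8.51 and 8.89 in PI arrays, against 8.77 and 9.01 in control arrays. As for Gnat3, the groups did not overlap at 3 or 14 days and did at 60 days. The log2 difference was -0.60 (SE 0.13) at 3 days, 0.48 (SE 0.13) at 14 days and -0.09 (SE 0.14) at 60 days. The 5 PI arrays at 14 days differed little among themselves, with an SD of 0.07.

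Gng13 encodes the gamma subunit that joins gustducin in taste cells and is also present in olfactory and retinal neurons. At 3 days its level was 6.96, 7.15, 6.70, 6.88 and 6.29 in PI arrays, against 7.29, 7.48 and 7.08 in control arrays. At 14 days it was 7.85, 8.03, 7.51, 8.40 and 8.06 in PI arrays, against 7.51, 7.34 and 6.29 in control arrays. At 60 days it was 8.01, 7.47, 7.05, 6.44 and 7.58 in PI arrays, against 7.74 and 8.32 in control arrays. The groups overlapped at all 3 times, at 14 days by a single pair of arrays with nearly equal levels. The log2 difference was -0.48 (SE 0.30) at 3 days, 0.92 (SE 0.30) at 14 days and -0.72 (SE 0.35) at 60 days. Its lowest levels at each time, 6.29, 6.29 and 6.44, belonged to PI array 5 at 3 days, control array 3 at 14 days and PI array 4 at 60 days. These arrays also deviated together from their groups over all genes (Pearson's r of the deviations between 0.45 and 0.61). Without them the Gng13 difference was -0.36 at 3 days, 0.54 at 14 days and -0.50 at 60 days. At 14 days leaving out control array 3 alone gave the same 0.54.

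Plcb2, the phospholipase C of taste cells and also of blood cells, had like levels in PI and control mucosa. At 3 days its level was 6.09, 6.34, 6.37, 6.30 and 6.07 in PI arrays, against 6.09, 6.26 and 6.37 in control arrays. At 14 days it was 5.76, 6.01, 6.11, 6.07 and 6.02 in PI arrays, against 5.94, 6.11 and 6.06 in control arrays. At 60 days it lay between 5.82 and 6.06 in PI arrays, against 5.95 and 6.11 in control arrays. The groups overlapped at each time, and the log2 difference was 0.00 (SE 0.09), -0.04 (SE 0.09) and -0.07 (SE 0.11) at 3, 14 and 60 days. Its group means were 5.96 to 6.24 in mucosa and 5.84 to 6.04 in fibroblast cultures. Whether the probe set measured Plcb2 above background was not tested.

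**Figure D1:**
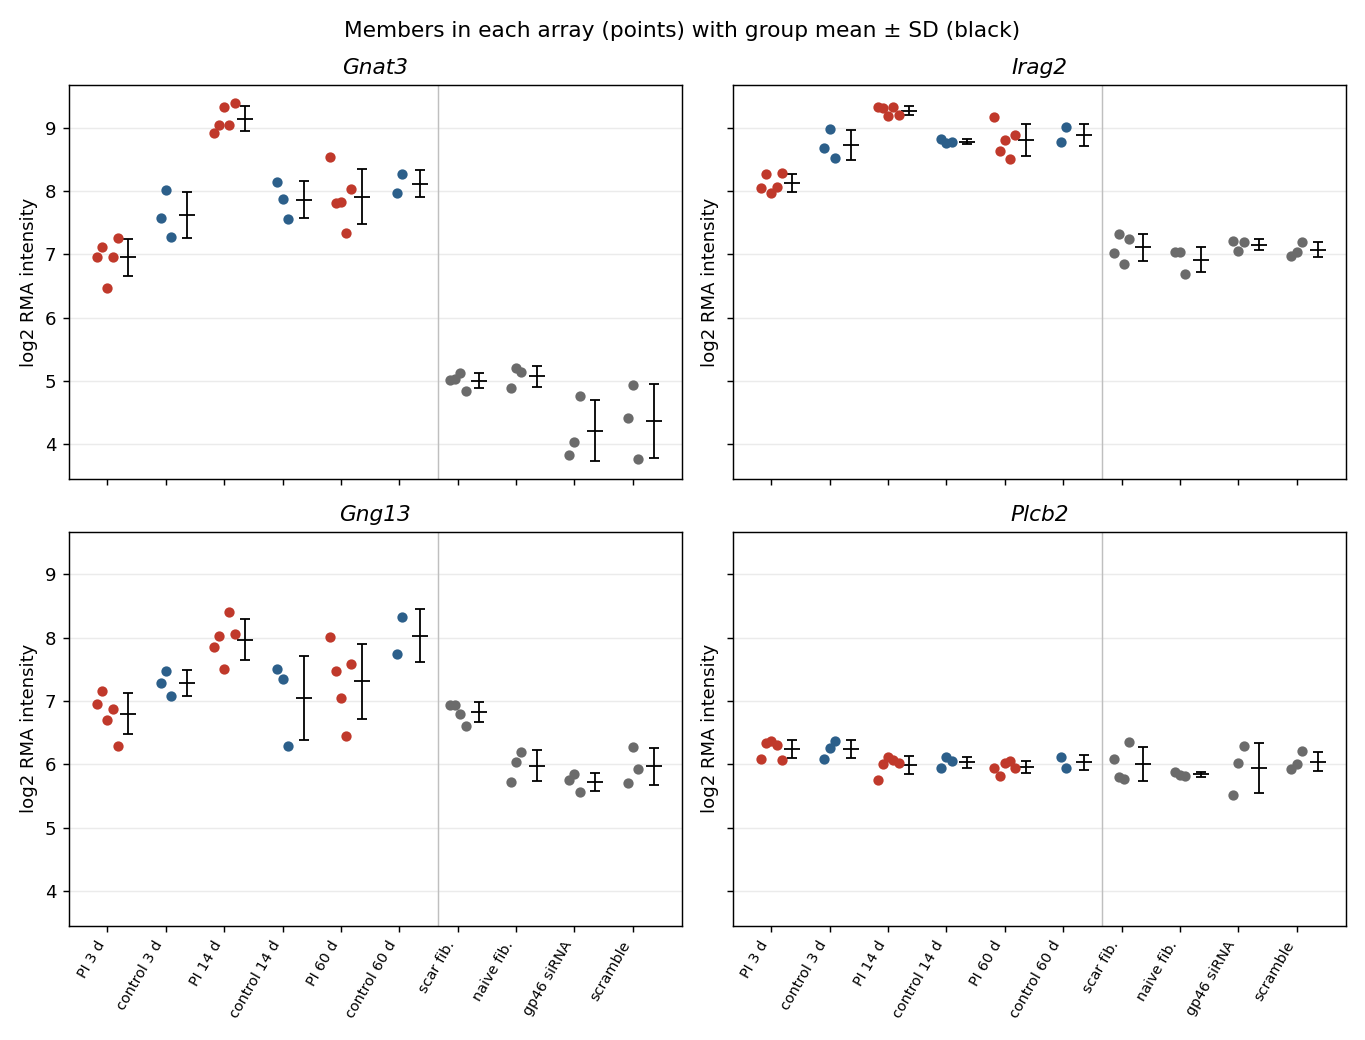
Levels of the 4 measured members in each of the 36 arrays (log2 RMA intensity), with PI mucosa in red, control mucosa in blue and fibroblast cultures in grey. The black marks give the mean and SD of a group. Gnat3 and Irag2 lie below the controls at 3 days PI and above them at 14 days PI, Gng13 moves likewise with overlap, and Plcb2 stays between 5.76 and 6.37 in the mucosa.

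In the fit over all genes (limma, Benjamini-Hochberg adjusted p under 0.05), Gnat3 and Irag2 were among the genes called lower at 3 days, as were 12.0% of the 14217 genes tested. They were among those called higher at 14 days, as were 2.11% of genes (3.07% in either direction), and no member was called at 60 days, when 0.0492% of genes were called. Every PI array lay below every control array at 3 days in 13.5% of genes and above every control array at 14 days in 7.95% of genes. Both held for 42 genes (0.295%), Gnat3 and Irag2 among them. Since the members were chosen with these results known, the counts describe them and are no test. The injury effect at 14 days exceeded that at 3 days by 1.95 (SE 0.31) in Gnat3, 1.08 (SE 0.18) in Irag2 and 1.41 (SE 0.43) in Gng13 on the log2 scale. All 3 were among the 2.53% of genes called higher in that contrast, which again describes them and is no test. In uninjured mucosa, controls at 60 days exceeded the earlier controls by 0.87 (SE 0.34) in Gng13, 0.38 (SE 0.25) in Gnat3 and 0.14 (SE 0.14) in Irag2. None of the 4 was among the 0.0633% of genes called there.

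The genes most like Gnat3 over the 23 mucosa arrays were Irag2 (Pearson's r = 0.945), Avil (r = 0.941) and Pou2f3 (r = 0.937), and those most like Irag2 were Avil (r = 0.967), Gnat3 and Pou2f3 (r = 0.932). Avil encodes advillin, an actin-binding protein that marks tuft cells. The correlations are a description, since the arrays share the group differences given above. With the group means removed, r with Gnat3 was highest for Avil (0.858), the thyroid iodide carrier Slc5a5 (0.835) and the lymphocyte gene Cd7 (0.825). With Irag2 it was highest for Avil (0.845), Slc5a5 (0.817) and Iqcc (0.813), and between Gnat3 and Irag2 it was 0.795. Pou2af3, a coactivator of Pou2f3 that was picked after its value was seen, had r = 0.811 with Gnat3 on this measure, equal to that of Pou2f3.

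Gng13 and Plcb2 had other neighbours. Over the arrays, Gng13 was most like Spata33 (r = 0.905), Rprml (r = 0.879) and Tprn (r = 0.874), and its r with Gnat3 was 0.774. With the group means removed, its nearest genes were Wfdc21 (0.910), Nacc2 (0.891) and Cbx6 (0.885). Plcb2 was most like Brca2 (r = 0.848), Cerk (r = 0.828) and Fpgs (r = 0.812) and, with the group means removed, Rasal3 (0.736), Polr1a (0.712) and Abcb4 (0.700). Its r with Gnat3 was negative, -0.561 over the arrays and -0.255 with the group means removed.

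**Figure D2:**
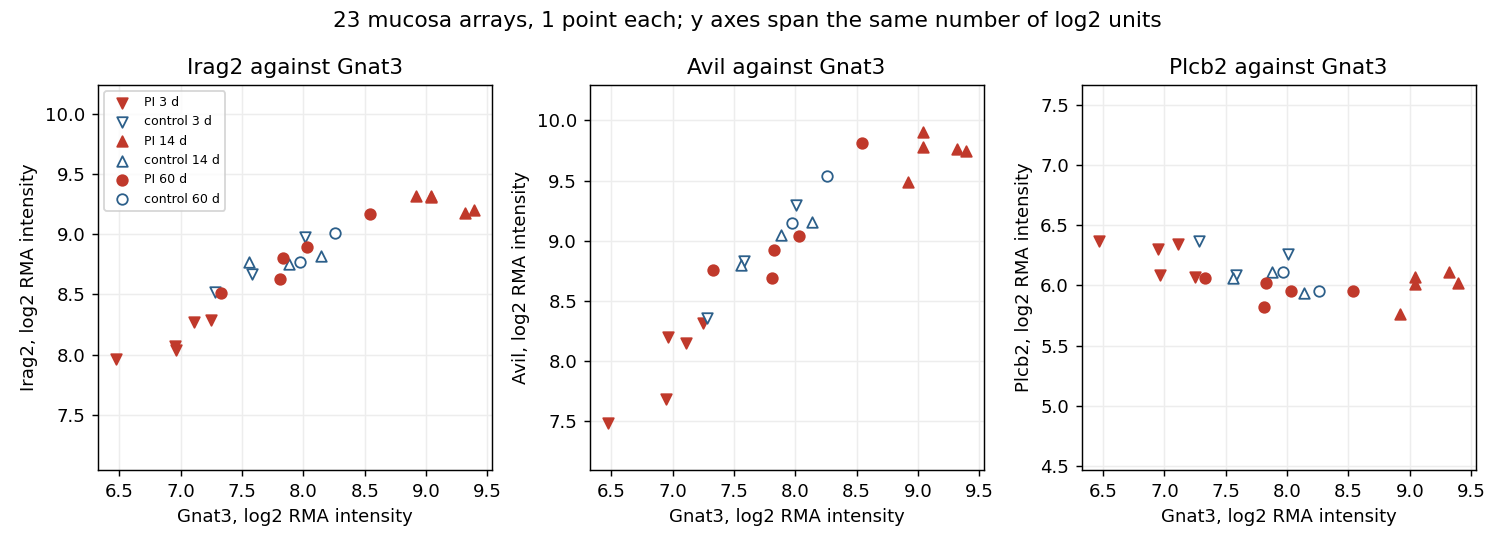
Level of Irag2, Avil and Plcb2 against that of Gnat3 in the 23 mucosa arrays (log2 RMA intensity on both axes, 1 point per array). Filled red marks are PI arrays and open blue marks control arrays, and the shape gives the time. Irag2 (r = 0.945) and Avil (r = 0.941) climb with Gnat3 from the 3-day PI arrays to the 14-day PI arrays, while Plcb2 (r = -0.561) does not.

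Promoter sequences of 4 of the 6 members were held in the RefSeq table (build GRCr8), those of Gnat3, Gng13, Trpm5 and Tas1r2. Shown are the 250 bases before the start of Gnat3 and Gng13, the members with the largest differences at 14 days, and of Avil, the gene that moved most closely with Gnat3 and Irag2. They lie at chr4:18104333-18104582 (minus strand), chr10:15245448-15245697 (plus strand) and chr7:64711153-64711402 (plus strand). Capitals mark ATGCAAA, the first 7 letters of the octamer that POU factors bind, and the E-box CACCTG, each searched on both strands, so CAGGTG is the E-box on the opposite strand.
Gnat3: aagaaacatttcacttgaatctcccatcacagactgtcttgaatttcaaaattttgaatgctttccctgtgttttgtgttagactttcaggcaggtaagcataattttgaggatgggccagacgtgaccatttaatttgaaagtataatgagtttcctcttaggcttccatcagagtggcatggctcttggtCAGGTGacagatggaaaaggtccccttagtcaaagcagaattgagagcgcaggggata
Gng13: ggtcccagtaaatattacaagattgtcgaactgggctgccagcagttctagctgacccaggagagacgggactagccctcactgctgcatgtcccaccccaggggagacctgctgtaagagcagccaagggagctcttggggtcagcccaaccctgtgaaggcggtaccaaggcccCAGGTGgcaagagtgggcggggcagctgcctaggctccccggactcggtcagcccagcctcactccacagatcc
Avil: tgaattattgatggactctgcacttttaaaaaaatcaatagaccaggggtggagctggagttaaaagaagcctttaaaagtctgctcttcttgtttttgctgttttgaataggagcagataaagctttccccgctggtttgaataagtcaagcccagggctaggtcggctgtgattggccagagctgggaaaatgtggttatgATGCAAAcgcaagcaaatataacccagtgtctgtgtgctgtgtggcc
The full octamer ATGCAAAT was in none of the 4 member promoters and in 1.56% of the 33469 promoters of the table. ATGCAAA, held by the Avil window 47 to 41 bases before its start, was in 4.08% of all promoters. TGCAAAT, which overlaps it, was in 3.54% and among members in that of Tas1r2. The E-box lay 58 to 53 bases before the start of Gnat3 and 74 to 69 bases before that of Gng13, was also in the Trpm5 window, and was in 15.9% of all promoters. A match is a run of letters and not a shown binding site.

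The other genes of the pathway and its cells were taken from 5 lists with 81 genes, of which 58 were measured. Bitter receptors of the Tas2r family were listed only where they had a probe set, so the others of that family are not among the 81. At 3 days 4 of the 58 were called higher and 14 lower in PI, 31.0% of them against 26.5% of all genes (14.5% higher and 12.0% lower), with a median difference of -0.12 against 0.01 over all genes. At 14 days 1 was called higher and none lower, while 9 were higher and 5 lower at an unadjusted p under 0.05 (7.38% and 5.46% of all genes), and the median was 0.02. At 60 days limma called none, with 2 higher and 6 lower at an unadjusted p under 0.05 (2.60% and 6.38% of all genes), and the median was -0.03. The injury effect differed between 14 and 3 days in 10 of the 58 (17.2%, against 7.90% of all genes), upward in 8 and downward in 2.

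Among 21 measured of 35 tuft and solitary chemosensory cell genes, 8 were called lower and 1 higher at 3 days, 42.9% of them against 26.5% of all genes, and the median difference was -0.34. None was called at 14 days, when 7 were higher and 2 lower at an unadjusted p under 0.05 (7.38% and 5.46% of all genes) and the median was 0.05. At 60 days none was called (0.0492% of all genes). At an unadjusted p under 0.05, 0 were higher and 6 lower (2.60% and 6.38% of all genes), and the median was -0.16. The injury effect differed between 14 and 3 days in 5 of the 21 (23.8%), upward in each. Over all genes, 7.90% were called in that contrast, 2.53% of them upward as a share of all genes. In other lists it was called upward in 3 of 13 gland genes, with 1 downward, 2 of 4 Schwann cell genes and 2 of 7 muscle genes. In 2 of 8 fibroblast genes it was called downward. The 5 tuft and solitary chemosensory cell genes are Pou2f3, Avil, Plcg2, Vil1 and Hpgds, given below. Of them Plcg2, Vil1 and Hpgds were picked after their values were seen, and Pou2f3 and Avil were among the 3 genes most like both Gnat3 and Irag2. Pou2f3 was 7.17, 7.0, 6.75, 7.01 and 7.23 in PI arrays at 3 days, against 7.44, 7.42 and 7.37 in control arrays. It was 7.74, 8.01, 7.88, 7.89 and 7.91 in PI arrays at 14 days, against 7.75, 7.57 and 7.38 in control arrays. The groups did not overlap at 3 days, and at 14 days only the lowest PI array and the highest control array crossed. Pou2f3 fell by 0.38 at 3 days (SE 0.11, adjusted p = 0.0174), differed by 0.32 at 14 days (SE 0.11, adjusted p = 0.159), and its injury effect was higher at 14 than at 3 days by 0.70 (adjusted p = 0.00915). A dimmer Pou2f3 probe set gave 0.08 and 0.15, and with the mean of both probe sets neither the 3-day difference (-0.15, adjusted p = 0.255) nor the change between times (adjusted p = 0.0764) was called. Without control array 1 the 3-day adjusted p of Pou2f3 was 0.0667.

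Avil was 8.20, 8.15, 7.49, 7.69 and 8.32 in PI arrays at 3 days, against 8.83, 9.30 and 8.36 in control arrays. At 14 days it was 9.49, 9.78, 9.76, 9.90 and 9.75 in PI arrays, against 9.16, 9.05 and 8.80 in control arrays. As with Gnat3, all PI arrays were below the controls at 3 days and above them at 14 days. Avil is named here because it was among the genes most like Gnat3 and Irag2 over these same arrays. Its pattern follows in part from that choice, so its differences and adjusted p-values are no independent support. Avil fell by 0.86 at 3 days (SE 0.23, adjusted p = 0.00891), its difference at 14 days was 0.73 (SE 0.23, adjusted p = 0.101), and its injury effect was higher at 14 days by 1.59 (adjusted p = 0.00397). Plcg2, a phospholipase C of tuft and immune cells, fell by 0.43 at 3 days (adjusted p = 0.0152), and its effect at 14 days was higher by 0.76 (adjusted p = 0.00979, or 0.0596 with a replicate block). Without control array 2 the 3-day adjusted p was 0.0774 for Avil and 0.112 for Plcg2.

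Vil1, the microvillus protein villin, and Hpgds, a prostaglandin D2 synthase of tuft and mast cells, were not called at a single time but between times. The injury effect was higher at 14 than at 3 days by 0.86 in Vil1 (adjusted p = 0.0149) and by 1.93 in Hpgds (adjusted p = 0.0210). The Vil1 adjusted p was 0.0516 without control array 1 of 14 days, and that of Hpgds was 0.0509, 0.0570 and 0.0585 without control arrays 2 or 1 of 3 days or control array 3 of 14 days. Chat, which makes acetylcholine, had differences of -0.21 and 0.34 at 3 and 14 days, neither called (adjusted p = 0.295 and 0.258).

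Not all tuft cell genes moved this way. Dclk1, a kinase used as a tuft cell marker in mouse that fibroblasts and nerve also express, rose by 0.97 at 3 days (adjusted p = 0.00101) and differed by 0.67 at 14 days (adjusted p = 0.0737). Its 4 probe sets ranged from 0.13 to 2.45 at 3 days. Ltc4s and Alox5, the leukotriene enzymes that mast cells and other leukocytes share, fell by 1.13 (adjusted p = 0.00290) and 1.07 (adjusted p = 0.000149) at 3 days, and their differences at 14 days were -0.41 and -0.32 (adjusted p = 0.612 and 0.531). Matk fell by 0.98 at 3 days (adjusted p = 0.0140), a call lost without control arrays 2 (adjusted p = 0.145) or 3 (adjusted p = 0.0769).

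**Figure D3:**
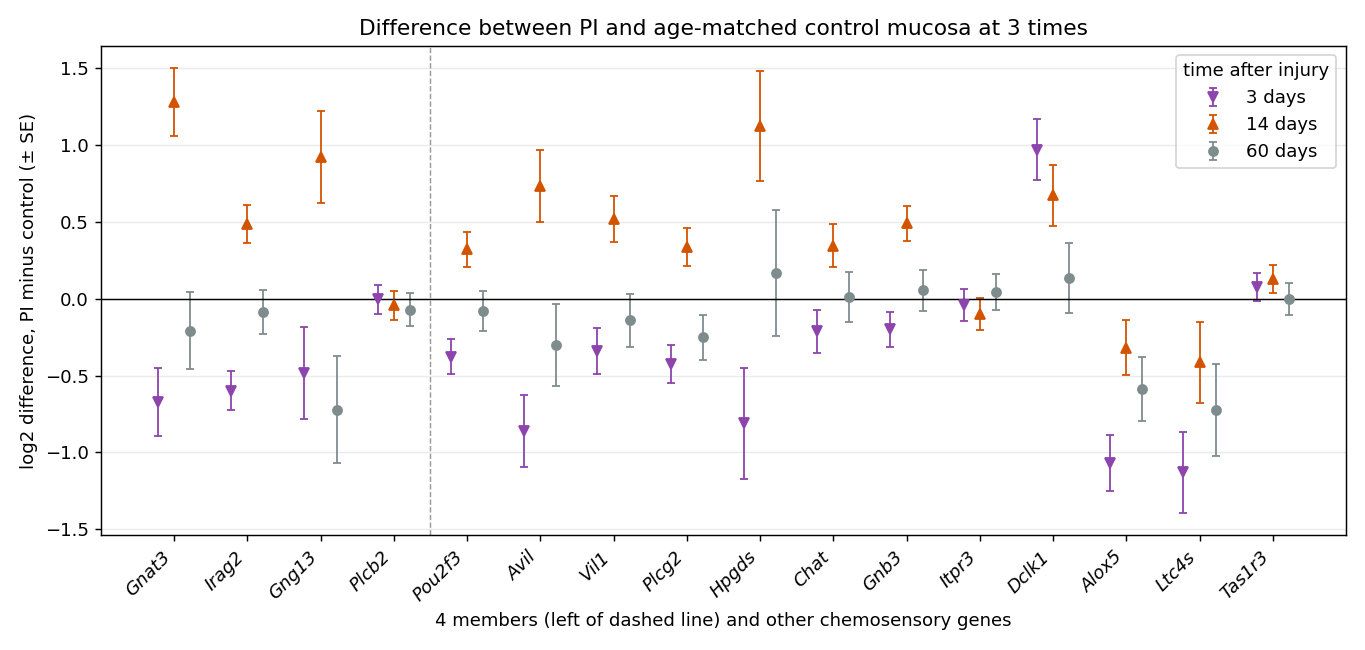
Log2 difference, PI minus control, with its SE at 3, 14 and 60 days for the 4 measured members, left of the dashed line, and 12 other chemosensory genes. Gnat3, Irag2 and Gng13 lie below 0 at 3 days and above 0 at 14 days, as do Pou2f3, Avil, Vil1, Plcg2 and Hpgds, while Dclk1, Alox5 and Ltc4s keep 1 sign at both times and Plcb2, Itpr3 and Tas1r3 stay near 0.

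No taste receptor was called between PI and control mucosa. The 10 measured were Tas1r3 and 9 bitter receptors of the Tas2r family, and Tas1r1 had no probe set annotated to it alone. Tas2r genes entered the list only where they had such a probe set, so the others of that family are not counted. Limma called none of the 10 at any time, with 0 at an unadjusted p under 0.05. Over all genes, 26.5%, 3.07% and 0.0492% were called at 3, 14 and 60 days. The mean level over the 10 genes lay between 4.48 and 4.66 in every mucosa array and between 4.48 and 4.71 in fibroblast cultures. The 2 brightest, Tas1r3 (mean 5.82) and Tas2r126 (mean 5.69), differed by 0.13 and 0.09 at 14 days (adjusted p = 0.677 and 0.784). Both were called lower in uninjured mucosa than in naive fibroblasts. The log2 differences, mucosa minus fibroblasts, were -0.46 and -0.31 (limma, adjusted p = 0.000281 and 0.0111). The SE of the differences at 3 and 14 days was 0.07 to 0.10 for the 10 genes.

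Of 16 measured taste transduction genes, Gnb3, the beta subunit that partners gustducin, was the 1 called at 14 days (6.25%, against 3.07% of all genes). It was 7.96, 8.29, 7.85, 8.21 and 8.13 in PI arrays at 14 days, against 7.72, 7.61 and 7.47 in control arrays. The groups did not overlap, and the difference was 0.49 (SE 0.12, adjusted p = 0.0197), with 0.65 for a second, dimmer probe set. The call was lost without PI arrays 2 or 5 (adjusted p = 0.0521 and 0.0518) or control arrays 2 or 3 (adjusted p = 0.0760 and 0.146). The effect on Gnb3 was higher at 14 than at 3 days by 0.69 (adjusted p = 0.0106). The Gnb3 signal was not limited to mucosa, with group means of 8.01 to 8.38 in fibroblast cultures. It was 0.62 lower in uninjured mucosa than in naive fibroblasts (limma, adjusted p = 2.57e-06). Itpr3, the calcium release receptor of taste cells and of many other cells, differed by -0.04 and -0.10 at 3 and 14 days (adjusted p = 0.827 and 0.844). At 3 days 2 of the 16 were called higher and 4 lower, 37.5% of them against 26.5% of all genes. Gnb1 (0.43, adjusted p = 0.00587) and Pde1a (0.32, adjusted p = 0.0176) were higher. The Gnb1 difference was -0.14 with its brightest probe set (adjusted p = 0.222) and not called without control array 1 (adjusted p = 0.0698), and Pde1a was not called without control array 3 (adjusted p = 0.0683). Trpm4 fell by 0.27 (adjusted p = 0.0307), a call lost without PI arrays 1 or 3 or control arrays 1 or 3 (adjusted p between 0.0608 and 0.132). Cd36 (-1.37, adjusted p = 0.00133), Scnn1a (-0.91, adjusted p = 0.00107) and Pla2g2a (-1.62, adjusted p = 0.0268) were lower. The Pla2g2a call was lost without control arrays 1 or 2 (adjusted p = 0.0512 and 0.164) or PI array 5 (adjusted p = 0.0605).

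Of 6 measured sour taste cell genes, Ddc, which makes serotonin and dopamine, fell by 0.99 at 3 days (adjusted p = 7.94e-06) and the synaptic gene Snap25 by 0.35 (adjusted p = 0.00737, or 0.102 without control array 1). A second, dimmer Ddc probe set gave -0.21 at 3 days. The adhesion gene Ncam1, also made by nerve and regenerating muscle, rose by 0.97 (adjusted p = 6.42e-05). Other Ncam1 probe sets gave 0.26 and 2.06 at 3 days. The calls at 3 days were 50.0% of the list, against 26.5% of all genes. None of the 6 was called at 14 days, and none of 5 glial-like taste cell genes was called at any time, with 0 at an unadjusted p under 0.05 at 3, 14 or 60 days. The brightest of these, Entpd2 and Slc1a3, differed by 0.07 and -0.50 at 14 days (adjusted p = 0.932 and 0.602).

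Of 9 measured taste bud epithelium and progenitor genes, 2 were called higher at 14 days (22.2%, against 2.11% of all genes called higher). Prox1, a homeobox factor of taste buds that lymphatic vessels also use, was 7.91, 8.11, 8.14, 8.51 and 8.14 in PI arrays at 14 days, against 7.33, 7.25 and 6.76 in control arrays. Its groups did not overlap, and it rose by 1.05 (SE 0.15, adjusted p = 0.000379), against -0.01 at 3 days and 0.03 at 60 days. A second, dimmer Prox1 probe set gave -0.03 at 14 days. The Prox1 effect was higher at 14 than at 3 days by 1.06 (adjusted p = 0.00318), or by 0.40 with the mean of both probe sets (adjusted p = 0.0918). Lgr5, a receptor of epithelial stem cells, rose by 0.86 (SE 0.23, adjusted p = 0.0480), a call lost without any of 6 arrays, PI 3, 4 or 5 or any control, with adjusted p between 0.0776 and 0.195. At 60 days Lgr5 differed by 1.05 (adjusted p = 0.166), and every PI array was above both controls.

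Each array holds the RNA of whole mucosa, so fewer cells of a type and less RNA per cell cannot be told apart. Other cell markers moved as well. Over all genes, 12.0% were called lower and 14.5% higher at 3 days, and 2.11% were called higher at 14 days. At 3 days 5 of 13 gland and secretory genes were called lower and 1 higher, as were all 4 Schwann cell genes lower, 5 of 7 muscle genes lower, 4 of 8 neuroendocrine genes lower and 1 higher, and 5 of 6 neutrophil and 5 of 8 fibroblast genes higher. The mean over the gland genes was 11.47 to 12.01 in PI arrays at 3 days, against 11.98 to 12.14 in controls, and 11.78 to 12.02 in PI arrays at 14 days, against 11.70 to 11.97 in controls. Ciliated cell genes were higher in PI at both times, 4 of 5 called at 3 days and 4 of 5 at 14 days. Their mean was 8.84 to 9.48 in PI arrays at 3 days, against 8.05 to 8.33 in controls, and 9.08 to 9.62 in PI arrays at 14 days, against 8.15 to 8.31 in controls. The part of these cells in the levels of Gnat3 and Irag2 was not tested.

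Irag2, Plcb2, Hpgds and the leukotriene genes are also made by blood cells. For the counts below, 26.5% of all genes were called at 3 days and 3.07% at 14 days. Of 5 measured B lymphocyte genes none was called at any time. At an unadjusted p under 0.05, 1 was lower at 14 days and 1 higher at 60 days (5.46% and 2.60% of all genes). Their mean was 5.40 to 5.51 in PI arrays at 14 days, against 5.32 to 5.56 in controls, and stood between 5.26 and 5.53 in fibroblast cultures. Of 9 T lymphocyte genes 1 was called higher (Cd8a, 2.18, adjusted p = 5.57e-07) and 1 lower (Cd4, -0.87, adjusted p = 0.00814, or 0.0971 without control array 2) at 3 days. At 14 days Cd4 was called lower (-0.88, adjusted p = 0.0440), a call lost without any 1 of the 8 arrays of that time (adjusted p between 0.0533 and 0.151). The median T lymphocyte difference was -0.295 at 3 days, when 3 of 9 were above 0, and 0.142 at 14 days, when 7 of 9 were. The mean level of these genes was 7.14 to 7.67 in PI arrays at 3 days, against 7.02 to 7.59 in controls. At 14 days it was 6.79 to 7.23 in PI arrays, against 6.66 to 7.47 in controls. The general leukocyte mean was 9.56 to 10.29 in PI arrays at 14 days, against 10.33 to 10.52 in controls. The mast cell mean was 7.34 to 8.25 in PI arrays at 14 days, against 8.22 to 8.99 in controls. Of 6 mast cell genes Ms4a2 and Tpsb2 were called lower (-1.21 and -1.07) and Hdc higher (0.87) at 3 days, each call lost without at least 1 array. Ms4a2 was also called lower at 14 days (-1.53, adjusted p = 0.0347), a call lost without PI arrays 2, 3 or 5 or control arrays 1 or 3 (adjusted p between 0.0551 and 0.210). The Hpgds difference at 14 days was 1.12 (adjusted p = 0.102). Of the 5 measured thyroid genes Pax8 and Nkx2-1 were lower at 3 days and none was called at 14 days, and Slc5a5 differed by -0.60 at 3 days and 0.13 at 14 days (adjusted p = 0.252 and 0.968). Their part in the members' levels was not tested.

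**Figure D4:**
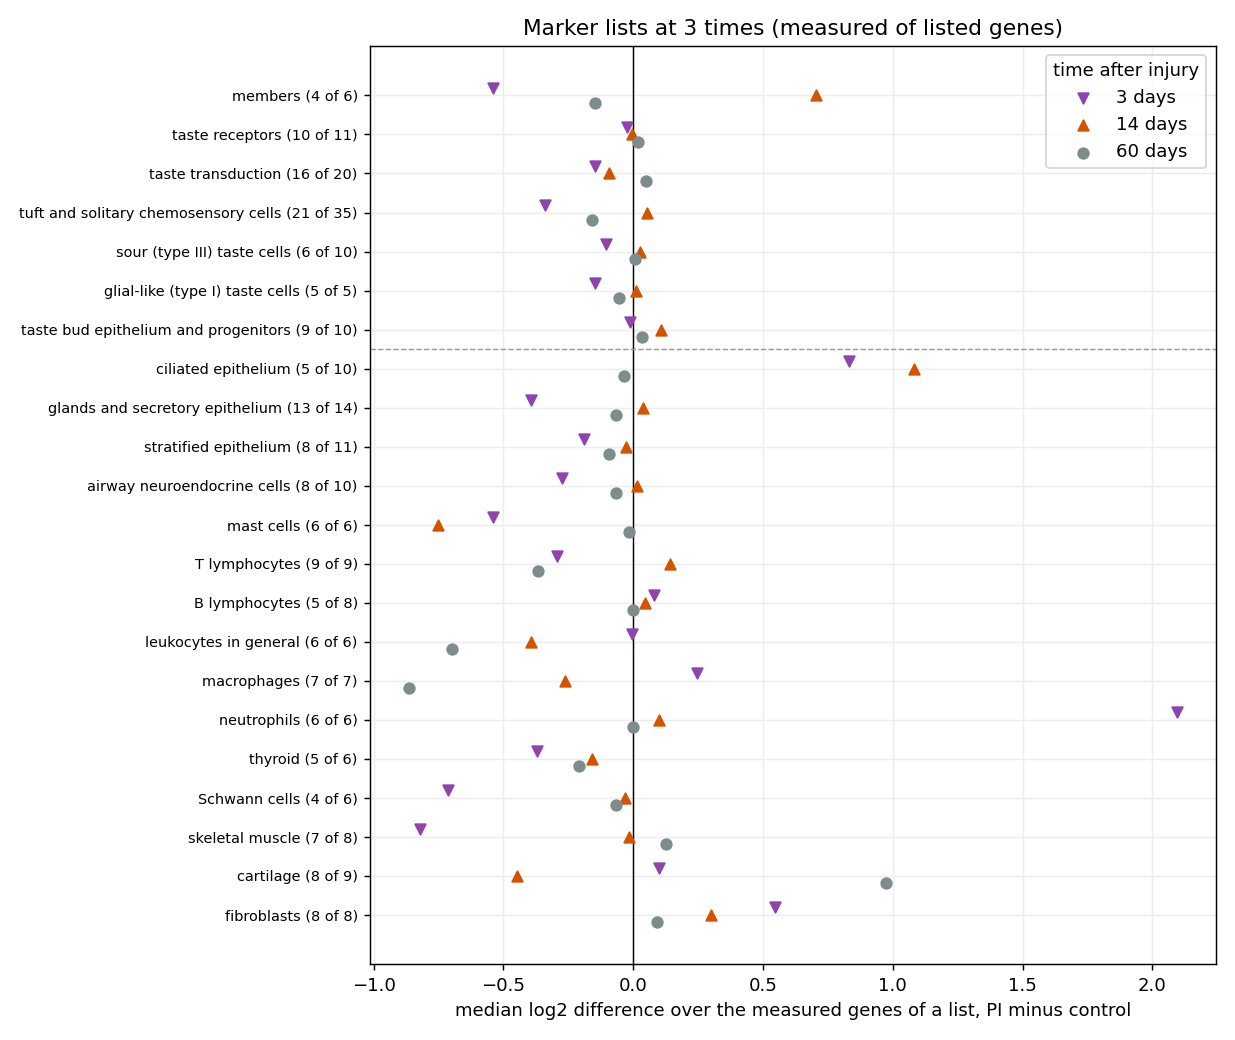
Median log2 difference, PI minus control, over the measured genes of each marker list at 3, 14 and 60 days, with measured and listed gene numbers in brackets. Tas2r genes were listed only where they had a probe set. Chemosensory lists stand above the dashed line and other cell types below it. The members' median is -0.54 at 3 days and 0.70 at 14 days, that of ciliated genes 0.83 and 1.08, and that of gland genes -0.39 and 0.04.

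Fibroblast cultures gave levels of the members outside epithelium. The epithelial keratins Krt18 and Krt19 were 8.26 and 8.28 log2 units higher in uninjured mucosa than in naive cultures (adjusted p = 2.26e-26 and 3.19e-29). Gnat3 was 7.28 to 8.26 in the 8 uninjured mucosa arrays, against 4.89, 5.20 and 5.15 in naive fibroblasts, and the ranges lay far apart. The log2 difference, mucosa minus naive fibroblasts, was 2.79 (SE 0.22) for Gnat3, 1.88 (SE 0.12) for Irag2, 1.47 (SE 0.25) for Gng13 and 0.26 (SE 0.12) for Plcb2. In all, 29.2% of genes were called higher in mucosa. The control mucosa arrays were among those whose values chose the members, so these differences are a description as well. Mucosa and cultures also differed in pooling and RNA input, which cannot be told apart from the cells they hold.

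Between cultures, Gng13 was 6.94, 6.94, 6.80 and 6.61 in scar fibroblasts, against 5.72, 6.03 and 6.19 in naive fibroblasts. Scar and naive cultures did not overlap, and Gng13 rose by 0.84 (SE 0.15, adjusted p = 0.0109), as 2.62% of genes were called higher in scar fibroblasts. Gng13 was among the 30% of genes of lowest mean in the fibroblast arrays, and with those left out it was not tested. Gnat3, Irag2 and Plcb2 differed by -0.07, 0.19 and 0.16 (adjusted p = 0.914, 0.409 and 0.664). In scar cultures treated with siRNA, Gng13 was lower than in the untreated scar cultures, at 5.75, 5.85 and 5.57 with gp46 siRNA and 5.70, 6.28 and 5.93 with scramble siRNA, a difference that was not tested. No member was called between gp46 siRNA and scramble, with differences between -0.24 and 0.08 and an adjusted p of 1.00 for each. Limma called none of the 14217 genes in that comparison, and no member had an unadjusted p under 0.05.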

How the data were processed

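The deposited values were log2 RMA signals of 31099 probe sets on 36 Affymetrix rat genome arrays, made by the authors with RMA in the affy package (versions not given in the sources used here). After removal of 57 control probe sets, 20826 had 1 gene symbol, 436 several and 9780 none. Symbols were updated by gene number (20758 probe sets) or accession (2) and kept in 66. Of several probe sets to a gene, that of median mean intensity was kept, as in the methods. Groups followed the labels, although the methods split the arrays at 60 days differently.

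The tests used limma 3.58.1 (R 4.3.3), in 1 fit of the 23 mucosa arrays, 1 of the 13 fibroblast arrays and 1 of all arrays, and were tested on simulated data. Genes with a Benjamini-Hochberg adjusted p under 0.05 over 14217 genes were called. EBarrays, the tool of the methods, was not used here. Nothing in the labels says that arrays came from separate surgeries, so p-values measure the spread between these arrays. The siRNA cultures of equal replicate number deviated together (Pearson's r 0.44, 0.18 and 0.48), and a replicate block there called no member either. The members and lists were chosen with earlier results of these data known. The text names the members, up to 4 called genes of each list with the largest difference (or the 2 of highest mean where none was called), the 3 genes most like each member, and Pou2f3, Chat, Dclk1, Tas1r3 and Itpr3. In lists of other cell types the rule was not followed in full, and most of their genes are given as counts and mean levels. Plcg2, Vil1, Hpgds, Pou2af3, Gnb1, Pde1a, Trpm4, Krt18 and Krt19 were added after their values were seen.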

Additional observations from a re-analysis of the deposited data

Results flagged for a closer look

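Single arrays stood apart from the other arrays of their group in 11 of 148 gene and group pairs tested by Dixon's criterion, and chance marks about 1 in 20. In PI arrays at 3 days, array 5 held the highest Cd36 level (10.77, next 9.57), the lowest Ltc4s level (7.87, next 8.60) and the lowest Tas1r3 level (5.74, next 5.85). In PI arrays at 14 days, Plcb2 was low in array 1 (5.76), Snap25 was low in array 2 (5.93), Vil1 was high in array 2 (7.49) and Entpd2 was low in array 3 (8.62). In PI arrays at 60 days, Alox5 was high in array 1 (8.84), Snap25 was high in array 2 (6.20) and Itpr3 was high in array 4 (10.14). In scar fibroblasts, Trpm4 was low in array 4 (7.73).

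Some injury effects differed between times. In Gnat3 the effect at 14 days exceeded that at 3 days by 1.95 and in Irag2 by 1.08. In both genes all PI arrays were below the controls at 3 days and above them at 14 days. These differences are a description, since the members were chosen with them known. By the limma contrast of the 2 effects, the effect at 14 days was higher than that at 3 days in Avil (1.59), Hpgds (1.93), Lgr5 (1.25), Prox1 (1.06), Vil1 (0.86), Plcg2 (0.76), Ddc (0.73), Pou2f3 (0.70) and Gnb3 (0.69) and lower in Cd8a (-1.87), Ncam1 (-1.18) and Gnb1 (-0.53). The effect at 60 days was higher than that at 3 days in Cd36 (1.73), Lgr5 (1.44) and Ddc (0.99) and lower in Cd8a (-2.55), Ncam1 (-1.01) and Gnb1 (-0.56). With other probe sets the contrast of 14 and 3 days was not called in Prox1 (mean of both, 0.40, adjusted p = 0.0918), Cd8a (brightest, -0.40, adjusted p = 0.192) or Gnb1 (brightest, 0.14, adjusted p = 0.570). It was lost in Lgr5 without control array 2 of 14 days (adjusted p = 0.0611) or 3 of 3 days (adjusted p = 0.0555), or with a replicate block (adjusted p = 0.0509), and in Ddc without control arrays 1 or 3 of 3 days (adjusted p = 0.0599 and 0.0501). In Gnb1 it was lost without any of 9 arrays taken singly (adjusted p between 0.0545 and 0.153). The losses in Vil1, Hpgds, Plcg2 and Pou2f3 are given with those genes. Avil was named for its likeness to Gnat3 and Irag2 over the same arrays, and Pou2f3 was also among the 3 genes most like each of them. Plcg2, Vil1, Hpgds and Gnb1 were added after their values were seen. The lists were chosen with earlier results of these data known, so none of these contrasts is an independent result.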

How the results depend on the processing

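The signs of the Gnat3 and Irag2 differences at 3 and 14 days, and of Gng13 at 3, 14 and 60 days, held under all 19 (at 60 days 18) alternatives, leave-one-out fits included. The range was -0.89 to -0.48 and 1.13 to 1.42 for Gnat3, -0.70 to -0.47 and 0.47 to 0.51 for Irag2, and -0.59 to -0.22, 0.54 to 1.15 and -1.01 to -0.07 for Gng13. The sign turned in 2 settings for Gnat3 and 3 for Irag2 at 60 days and in 7, 1 and 1 settings for Plcb2 at 3, 14 and 60 days. With array weights, 8342, 2093 and 55 genes were called at 3, 14 and 60 days, against 3771, 436 and 7 as reported. Of the other chemosensory genes 29 were then called at 3 days (18 as reported) and 14 at 14 days (1). Effects then differed in 19 between 3 and 14 days (10) and in 12 between 3 and 60 days (4), and 3 were called between 60-day and earlier controls (0). With only the arrays compared, 910 genes and 9 other chemosensory genes were called at 14 days and 0 genes at 60 days. With pooled controls, 895 genes and 8 other chemosensory genes were called at 14 days, and 1001 and 6 at 60 days. Arrays of equal replicate number were not pairs in the mucosa (Pearson's r of their deviations from -0.13 to 0.31) or in scar and naive cultures (0.10 to 0.14). With the replicate block, 2 other chemosensory genes were called at 14 days and 0 genes at 60 days. Without the 3 deviating arrays, the counts were 3 and 22. Leaving out 1 array gave 172 to 418 genes and 0 to 2 other chemosensory genes at 14 days, 0 to 20 genes at 60 days, 7 to 11 other chemosensory genes with effects that differed between 3 and 14 days and 1 to 8 between 3 and 60 days. In these, 172 genes at 14 days came without control array 3, 20 genes at 60 days without PI array 4 and 8 without control array 2 of 3 days. The cause of these shifts was not tested. Without the 30% of genes of lowest mean, Irag2 was the 1 member tested in the fibroblast fits, so 0 members were called in scar and 1 in mucosa against naive fibroblasts. For gp46 siRNA, the Gnat3 difference ranged from -0.46 to 0.12 and the Plcb2 difference from -0.27 to 0.11 with 1 array left out, each with an adjusted p of 0.925 or more, and turned its sign. With the brightest probe set, Gnb1 turned its sign at 3 days (-0.14) and between 14 and 3 days (0.14). Among named genes, 90 calls were lost and 56 gained over all alternatives, and 1528 results counted as unchanged. For tested results, unchanged means the same sign and the same side of the threshold. For the members' PI minus control differences, which have no test, it means a shift smaller than the SD within groups. Small groups, pooled rats and probes without detection calls limit what small differences can show, most of all at 60 days with 2 control arrays.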
